A study of Mus musculus with 14 samples.

Results

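DP cells sorted from the lung and from the blood of the same tumor-injected samples were compared by the level of their normalised DNA coverage signal. The cells were those labelled DP in samples C1L, C1N, C1R, C2R and P1, which hold DP cells of both tissues: 163 of blood and 127 of lung, or 290 of the 450 DP cells and of the 648 cells of all kinds in the data. Each cell was placed in 1 of 5 classes by its autosomal median, which is the median of the deposited coverage signal over the bins of the autosomes, with bounds at 2.7, 4.7, 6.7 and 8.7. All 290 cells fell in a class. Since the medians chose the classes, the class shares are given as a description with no test, and tests were run only on the shape of the profile relative to that median.

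The samples came from female C57BL/6J mice of 6 to 8 weeks that had been injected with fluorescently labelled B16F10 melanoma cells, and no drug was given. Single cells were sorted on tumor and host markers. The classes were DP, whose letters the labels do not spell out, CTC (circulating tumor cells) and WBC (white blood cells). Each genome was amplified by MALBAC, in which full copies made from 1 cell close into loops and so are not copied again during the first cycles. The ends of the scale were fixed by 22 cells of the B16F10 culture, a line of C57BL/6J background and by 21 WBC of naive C57BL/6J mice. No label says whether a sample is 1 mouse, when a tissue was taken, or how C and P samples differ. The p-values here thus rest on the spread between samples only, which limma also pools over bins.

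B16F10 is a metastatic mouse melanoma line that seeds the lung readily when it reaches the blood. Tumor lines of this kind are aneuploid: some chromosomes are gained and others lost, so the relative coverage along the genome tells tumor DNA from host DNA. The overall level of coverage is another measure, which in a normalised track scales with the assigned copy number of the whole cell. A cell holding both a tumor and a host genome would show a raised level and a profile between both parents, and so would 2 cells sequenced together.

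The coverage medians of the 290 cells gathered at 5 levels with empty space between them. The class medians were 1.82 for the 136 cells below 2.7, 3.72 for the 117 cells from 2.7 to 4.7, 5.64 for the 22 cells from 4.7 to 6.7, 7.76 for the 6 cells from 6.7 to 8.7 and 9.58 for the 9 cells above 8.7. The cells nearest to the bound of 2.7 had medians of 2.44 and 3.52. Those nearest to 4.7 had medians of 3.84 and 5.43, those nearest to 6.7 had 5.85 and 7.64, and those nearest to 8.7 had 7.83 and 9.24. The cell at 2.44, a blood cell of C1L, was the one that stood between levels. All 67 WBC, naive ones included, lay below 2.7, and all 43 CTC and 22 culture cells lay from 2.7 to 4.7, so the lowest class is called the host level and the next one the line level. Cells above 4.7 are called raised.

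**Figure D1:**
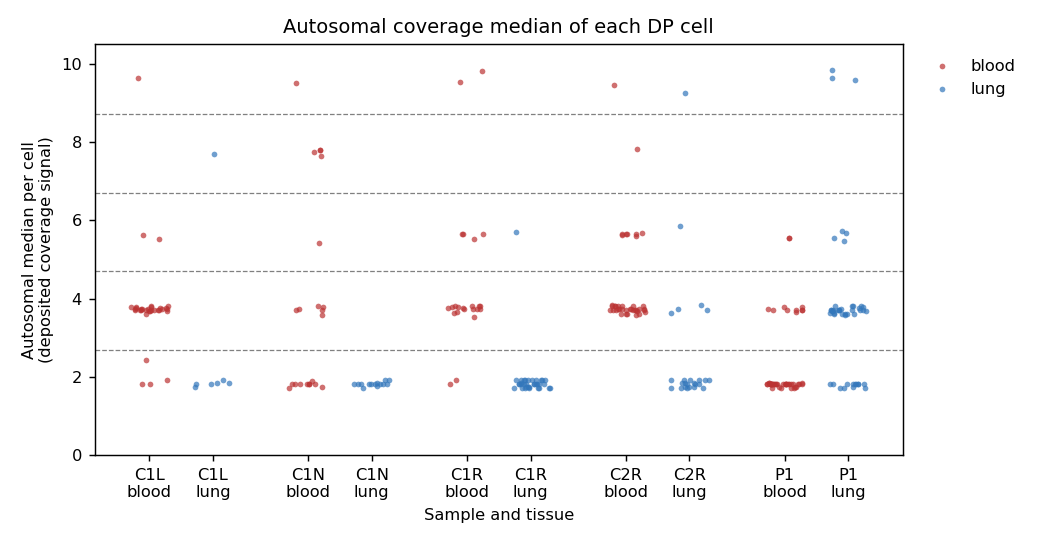
Autosomal median of the deposited coverage signal (vertical axis) of each of the 290 DP cells, by sample and tissue (horizontal axis). Points are single cells and lines mark the class bounds at 2.7, 4.7, 6.7 and 8.7. The points form 5 levels, and lung cells crowd the lowest level in C1L, C1N, C1R and C2R but not in P1.

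Lung DP cells lay mostly at the host level in the 4 C samples, and blood DP cells lay mostly at the line level in 3 of these, C1L, C1R and C2R. In C1L, 4 of 33 blood cells (12.1%) and 6 of 7 lung cells (85.7%) were at the host level. In C1N these were 10 of 22 blood cells (45.5%) and all 14 lung cells. In C1R they were 2 of 23 blood cells (8.7%) and 33 of 34 lung cells (97.1%). The blood of C2R held none in 39 cells, so that a share of up to 7.69% remains possible, against 19 of 25 lung cells (76.0%). P1 ran the other way, with 35 of 46 blood cells (76.1%) and 13 of 47 lung cells (27.7%) at the host level.

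The line level showed the reverse. Blood cells at this level numbered 26 of 33 in C1L (78.8%), 6 of 22 in C1N (27.3%), 15 of 23 in C1R (65.2%), 30 of 39 in C2R (76.9%) and 9 of 46 in P1 (19.6%). No lung cell at this level was found in C1L, C1N or C1R, where 0 of 7, 0 of 14 and 0 of 34 cells allow shares of up to 42.9%, 21.4% and 8.82%. C2R held 4 of 25 lung cells there (16%) and P1 held 27 of 47 (57.4%). All but 4 of the 31 lung cells at the line level thus came from P1.

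**Figure D2:**
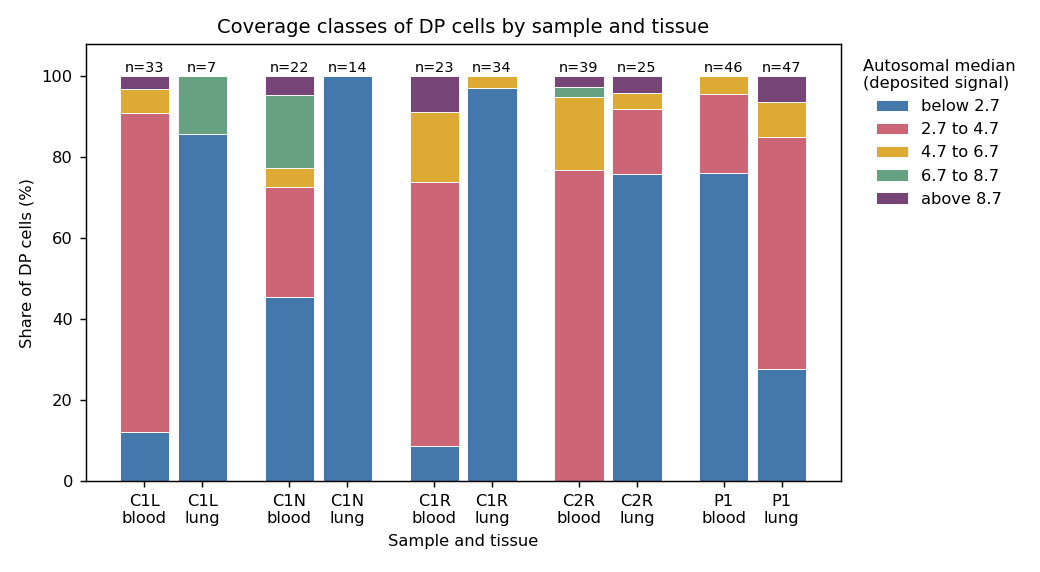
Share of DP cells (vertical axis, percent) in each of the 5 coverage classes for the blood and the lung of each sample, with each bar adding to 100% and the number of cells at its top. The host level makes up 76.0% to 100% of lung cells in the 4 C samples and 27.7% in P1, and 0% to 45.5% of blood cells in the C samples and 76.1% in P1.

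Averaged with equal weight on each sample, the share of cells at the host level was 28.5% in blood and 77.3% in lung, a difference of 48.8 ± 55.7 percentage points (SD, n = 5). The line level differed by -38.9 ± 46.9 points, and the class from 4.7 to 6.7 by -6.97 ± 7.67 points. The class from 6.7 to 8.7 differed by -1.29 ± 11.5 points, and the class above 8.7 by -1.69 ± 5.79 points. All of these means were smaller than their SD. Without P1, the 4 C samples gave 73.1 ± 14.0 points at the host level, -58.1 ± 21.9 at the line level and -9.75 ± 5.18 from 4.7 to 6.7. These are differences in sorted and sequenced cells and not in the numbers of cells in an organ, since the number sequenced per tissue was set by the sort.

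Samples with DP cells of only 1 tissue gave the same spread of makeups. All 15 lung cells of C2N were at the host level, against 3 of 35 lung cells of P2 (8.57%), where 25 of 35 (71.4%) were at the line level. In blood, C3R held 8 of 81 cells at the host level (9.88%) and 67 of 81 at the line level (82.7%). P4 held 15 of 29 (51.7%) and 10 of 29 (34.5%). Among samples labelled C, lung cells thus stood mostly at the host level and blood cells mostly at the line level in all but C1N blood. The samples labelled P leaned the other way in P1 and P2 lung and in P1 and P4 blood. Sorted CTC and WBC of both tissues kept to their own level: 28 blood and 15 lung CTC all lay from 2.7 to 4.7, and 28 blood and 18 lung WBC of tumor-injected samples all lay below 2.7.

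Raised cells made up 26 of 163 blood cells (15.95%) and 11 of 127 lung cells (8.66%). Their share was higher in blood in C1N (27.3% against 0%), C1R (26.1% against 2.94%) and C2R (23.1% against 8%), and higher in lung in C1L (9.09% against 14.3%) and P1 (4.35% against 14.9%). Counted only among the cells above 2.7, which leaves out the host level, they were 26 of 112 in blood (23.2%, exact Clopper-Pearson 95% interval 15.8% to 32.1%, for counting error only) and 11 of 42 in lung (26.2%, 13.9% to 42.0%). In P1 these were 2 of 11 blood cells (18.2%) and 7 of 34 lung cells (20.6%), and in C2R 9 of 39 (23.1%) and 2 of 6 (33.3%). C1L and C1R had 1 lung cell each above 2.7, both of them raised, and C1N had none, so these samples give no lung share.

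The profile of each cell was then read relative to its own level. How the deposited signal was scaled is not stated, so score and class may not be independent. For each bin, the log2 of the signal was taken after adding 0.1 and set relative to the autosomal median of the cell. A copy-number tumor score was computed as the slope of that profile on the difference between culture and naive WBC, so that the mean naive WBC scores 0 and the mean culture cell scores 1. DP cells of both tissues scored near 0 at the host level and near 1 at the line level. Pooled over samples, host-level cells scored 0.035 ± 0.137 in blood (SD over 51 cells) and 0.023 ± 0.063 in lung (85 cells), and line-level cells scored 0.968 ± 0.053 (86 cells) and 0.941 ± 0.0996 (31 cells). The sorted CTC of the same samples, with sample means from 0.879 to 1.007, and their WBC, with sample means from -0.00262 to 0.0392, span the same ends.

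**Figure D3:**
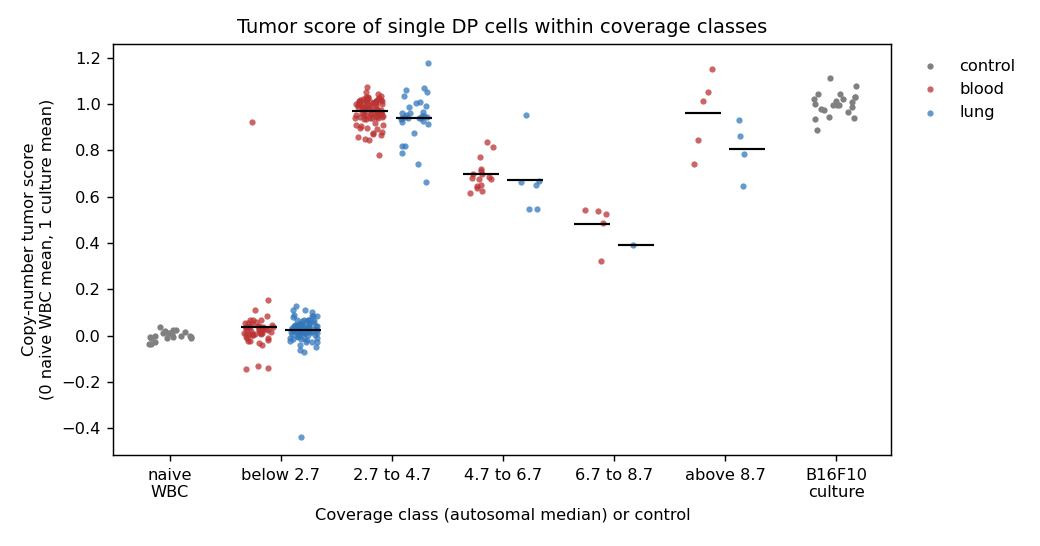
Copy-number tumor score (vertical axis) of single DP cells of blood and lung in each coverage class, with naive WBC and culture cells in grey (horizontal axis). Points are cells and black lines are means over cells. Blood and lung cells overlap in the classes that hold several of each, with the blood cell at a median of 2.44 and a score of 0.924 apart from its class.

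Most of the difference in mean score between lung and blood followed the class makeup. The mean score of DP cells differed, lung minus blood, by -0.782 in C1L, -0.402 in C1N, -0.780 in C1R and -0.683 in C2R, and by 0.417 in P1. An expected score was made for each tissue from its class shares and the mean score of all DP cells of each class. Lung minus blood of this expected score was -0.739 in C1L, -0.404 in C1N, -0.780 in C1R, -0.660 in C2R and 0.436 in P1. The makeup thus gave from 94.5% of the measured difference, in C1L, to 105% of it, in P1. The part left within classes averaged -0.0167 ± 0.0186 (SD, n = 5), against -0.429 ± 0.505 for the makeup. Without P1 these were -0.00561 and -0.656, and without C1L the part within classes was -0.00671. The class means were computed on the same cells, so the small remainder is a description and not an independent check.

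At the host level, the tissues were compared in C1L, C1N and P1, which had at least 3 cells in both tissues. Mean scores were 0.265 in blood and 0.035 in lung in C1L, 0.034 and 0.0049 in C1N, and 0.014 and 0.027 in P1. The mean difference, lung minus blood, was -0.082 ± 0.130 (SD, n = 3; exact two-sided sign-flip permutation p = 0.5, where 0.25 is the smallest that 3 pairs allow). The blood mean of C1L held the cell at 2.44, with a score of 0.924, 1 of only 4 cells. Without that cell, left out after its value was seen, C1L blood scored 0.045 and the mean difference was -0.0089 ± 0.0208 (exact permutation p = 0.75).

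The X chromosome is much lower relative to the autosomes in the line than in female host cells. It gave no lung minus blood difference that passed the test at the host level, where 3 pairs cannot reach 5%. X levels, the median log2 value of the X bins, were -0.217 in blood and -0.0661 in lung in C1L, 0.0384 and 0.0331 in C1N, and 0.0348 and 0.0187 in P1. The mean difference was 0.0432 ± 0.0935 (SD, n = 3; exact permutation p = 1). Without the cell at 2.44 the blood of C1L stood at 0.0532 and the difference turned to -0.0469 ± 0.0629, with lung lower in all 3 samples (exact permutation p = 0.25, the smallest possible). Bin-to-bin noise, the median absolute step between neighbouring autosomal bins, was higher in lung in 3 of 3 samples, by 0.0084 ± 0.0070 (exact permutation p = 0.25).

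No single bin passed the test between lung and blood at the host level. The sample means of both tissues were fitted with limma with the sample as a block, and 0 of 4376 bins passed a Benjamini-Hochberg adjusted p of 5% (0%), with 208 at an unadjusted p under 0.05. Without C1L 5 bins passed, all lower in lung, without C1N 1 passed, higher in lung, and without P1 1 passed, lower in lung. Whole chromosomes differed little, with a median absolute difference of 0.0143 (log2) and 19 of 20 chromosomes within 0.05. The largest were chromosome 6, lower in lung by a mean of 0.0691, chromosome 17, at -0.0412, and chromosome 4, at 0.0377. Chromosomes 6 and 17 were lower in lung in 3 of 3 samples, as was chromosome 19, and chromosome 4 was higher in 3 of 3. All other chromosomes of the 20 had mixed signs, and the agreement in sign was not tested. Chromosome 6 is the chromosome most gained in the line, and the C1L blood cell at 2.44 stood at 0.53 there and a lung cell of C1N at -0.59. The profile distance, the median absolute difference over bins, was 0.0816 between lung and blood in C1L, 0.0521 in C1N and 0.0452 in P1. Lung profiles of different samples lay 0.0414 to 0.0757 apart (10 pairs) and blood profiles 0.0609 to 0.0929 apart (3 pairs).

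Line-level DP cells could be compared between the tissues only in C2R, with 30 blood and 4 lung cells, and P1, with 9 and 27. Mean scores were 0.994 in blood and 1.06 in lung in C2R, and 0.927 and 0.923 in P1. The mean difference was 0.0325 ± 0.0512 (SD, n = 2; exact permutation p = 1, where 0.5 is the smallest that 2 pairs allow). X levels were -1.15 and -1.16 in C2R and -1.09 and -1.06 in P1, a mean difference of 0.00844 ± 0.0208 (exact permutation p = 1). Noise was higher in lung in both samples, by 0.00695 ± 0.000667 (exact permutation p = 0.5). The order of the tissues in score and in X level differed between C2R and P1.

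The altered runs that mark the B16F10 genome were held by line-level cells of both tissues. The culture carried 29 such runs of at least 10 bins, 9 gained and 20 lost relative to naive WBC, with those of X among the lost. Each kept its sign in all 7 sets of line-level DP cells: the blood of 5 samples and the lung of C2R and P1. The 2 runs of chromosome 6, 3705902 to 42759260 and 45559526 to 149736546 in mm10, were gained in the culture by 0.61 and 0.54. In C2R the first stood at 0.63 in blood and 0.70 in lung, and in P1 at 0.57 and 0.58. Distal X, from 107481865 on, was lost in the culture by a log2 value of -1.80 and stood at -1.73 in blood and -1.85 in lung of C2R, and at -1.53 in both tissues of P1. Over the 29 runs the absolute lung minus blood difference had a median of 0.0690 in C2R, with 8 over 0.1 and the highest, 0.140, on chromosome 18. In P1 the median was 0.0181 and none was over 0.1.

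**Figure D4:**
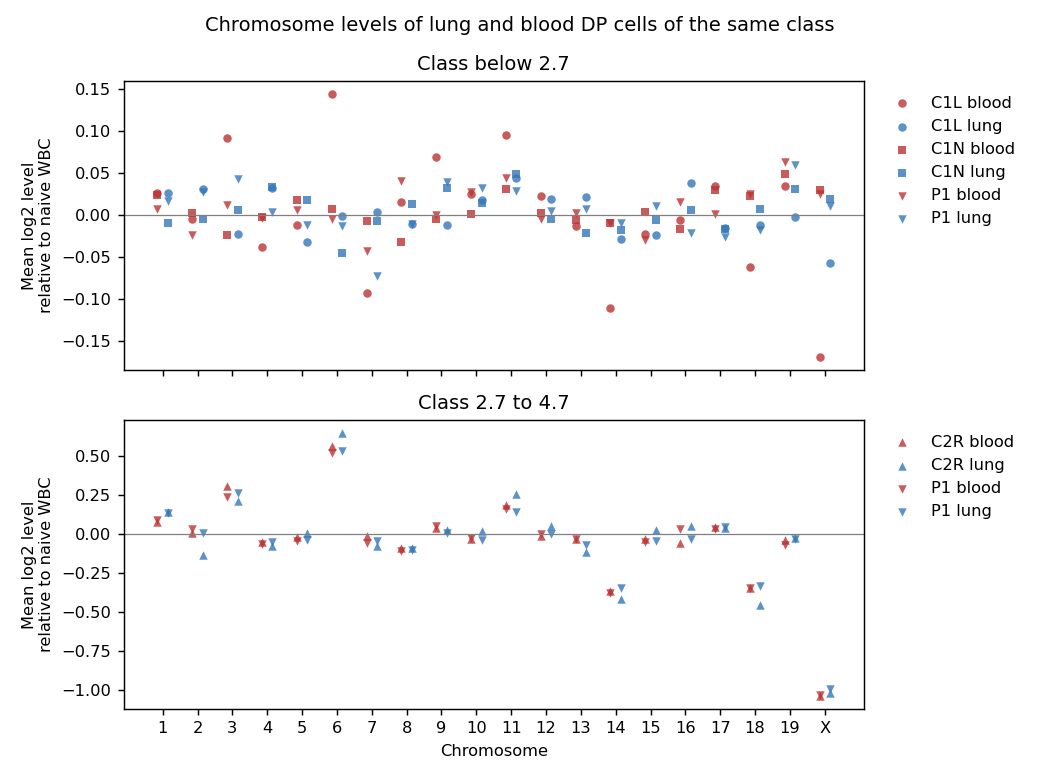
Mean log2 level of each chromosome relative to naive WBC (vertical axis) for DP cells at the host level (top) and at the line level (bottom), with 1 point per sample and tissue in samples with at least 3 cells in both. At the line level blood and lung share the gain of chromosome 6 (0.544 and 0.592) and an X level below that of naive WBC (-1.04 and -1.01). The mean difference over samples is under 0.1 for every chromosome in both classes. Single samples differ by more on some chromosomes, as C2R does on chromosome 2 (0.0084 in blood and -0.137 in lung).

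Averaged over C2R and P1, line-level cells stood at 0.544 in blood and 0.592 in lung on chromosome 6, at -0.371 and -0.382 on chromosome 14, at -0.344 and -0.394 on chromosome 18 and at -1.04 and -1.01 on X. The largest chromosome differences were -0.0835 on chromosome 2, -0.0634 on chromosome 13 and 0.0587 on chromosome 1. Their median size was 0.0268, and 17 of 20 were within 0.05. The profile distance between lung and blood was 0.0810 in C2R and 0.0426 in P1, against 0.0475 to 0.0853 between the blood of different samples (10 pairs).

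In limma 14 of 4376 bins (0.320%) were lower in lung at the line level and none was higher. Of these, 12 lay on X between 109819670 and 149086776, in the part where the line is most depleted, and the others on chromosome 9 from 109022494 and on chromosome 18 from 75748569. The differences came from C2R, where they ran from -0.989 to -0.383, while in P1 they ran from -0.167 to 0.138 and 7 of the 14 bins were lower in lung. All 14 bins had the same standard error, 0.0691, which was also the median over all bins. The spread was thus pooled over bins, so the adjusted p-values do not measure how far C2R and P1 differ in a bin. Of the 4 lung cells of C2R, 1 had a signal of 0.0224 times its autosomal median over the 12 X bins, against 0.254, 0.263 and 0.277 in the others. Without this cell, left out after its value was seen, no bin passed (254 at an unadjusted p under 0.05). The call also ended with a pseudocount of 0.5, with the bins at the ceiling kept, and without the sample block, at 0 bins each.

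Genes were read through the bin over their midpoint, about 538 kb wide at the median, so a value is the copy level of a region and says nothing of expression. The melanocyte lineage list, genes of pigment synthesis and its regulators, had 0 of 10 genes past limma in either class. The list of growth signalling genes had 0 of 11 and that of cell cycle and tumor suppressor genes 0 of 15. Median differences at the host level were -0.0171, -0.0220 and 0.00826 for the 3 lists, against -0.00136 over all bins. At the line level they were 0.0261, -0.00569 and 0.0204, against 0.00353.

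The genes most gained in the line stood above the median level in line-level DP cells of both tissues. Mitf, the master regulator of the melanocyte lineage (chromosome 6, 97807002 to 98021360 in the GRCm38.p6 annotation), stood at 0.59 in blood and 0.74 in lung of C2R and at 0.63 and 0.67 in P1. Met, the receptor of hepatocyte growth factor, on the same chromosome, stood at 0.62 and 0.63 in C2R and 0.76 and 0.80 in P1. Braf, a kinase of the MAP kinase pathway, stood at 0.54 and 0.78 in C2R and 0.51 and 0.56 in P1, and its difference of 0.15 (SE 0.0691) had an adjusted p of 0.938 in limma. Akt1, a survival kinase on chromosome 12, stood at 0.35 and 0.47 in C2R and 0.40 and 0.41 in P1. At the host level, over the 8 sets of sample and tissue with values, Mitf ran from -0.027 to 0.072, Akt1 from -0.065 to 0.060, Braf from 0.026 to 0.20 and Met from 0.0065 to 0.28. The highest Met values were 0.28 in lung and 0.21 in blood of P1, and 0.21 in blood of C1L, whose mean holds the cell at 2.44.

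The genes most lost in the line stood below it in both. Dct, an enzyme of melanin synthesis on chromosome 14 (118012790 to 118052246), stood at -0.66 in blood and -0.66 in lung of C2R and at -0.69 and -0.67 in P1. Mdm2, which targets p53 for degradation, stood at -0.50 and -0.36 in C2R and -0.34 and -0.39 in P1. Cdk4, a kinase that drives entry into S phase, stood at -0.40 and -0.092 in C2R and at -0.16 and -0.14 in P1, with an adjusted p of 0.818 in limma. Arid1a, a chromatin remodelling subunit, stood at -0.40 and -0.46 in C2R and -0.34 and -0.31 in P1. Apc, a negative regulator of Wnt signalling, stood at -0.38 and -0.45 in C2R and -0.34 and -0.38 in P1. The values of lung and blood differed by more in C2R, with its 4 lung cells, than in P1 for all of these genes but Dct and Met.

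Raised cells of lung and blood had mean scores between host and line up to 8.7 and higher ones above it, with a wide range. From 4.7 to 6.7, 16 blood cells scored 0.696 ± 0.0628 (SD over cells) and 6 lung cells 0.672 ± 0.149, with X levels of -0.630 and -0.593. The CDP control, 18 cells that all lay in this class and whose label is not spelled out, scored 0.696. The lung cell of C1R in this class scored 0.953, outside the blood range of 0.617 to 0.834. From 6.7 to 8.7, 5 blood cells scored 0.484 ± 0.0932 and the lung cell of C1L 0.389, with X levels of -0.379 and -0.200. Of the 5 blood cells 4 came from C1N. Above 8.7, 5 blood cells scored 0.960 ± 0.166 and 4 lung cells 0.805 ± 0.123, with X levels of -1.02 and -0.958. Those 4 lung cells were 3 of P1, with a mean score of 0.763 and a lowest of 0.644, and 1 of C2R, at 0.931. The lowest blood cell above 8.7, of C1N, scored 0.739. Too few samples held raised cells in both tissues for a test.

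A pair of bins chosen in earlier work on these data was also read. They have the highest and the lowest culture minus naive WBC difference of all kept bins, at 3.05 and -3.00 (log2). That they separate these controls thus follows from the choice. The bin over Tcra, the T cell receptor alpha locus (chromosome 14, 52958219 to 53528636), has signal in the line and almost none in WBC. The bin over Il1rapl1, a receptor accessory protein gene (X, 87239364 to 87785367), has signal in WBC and little in the line. Signal was called present at Tcra above 0.0238 times the autosomal median, the highest WBC value, and at Il1rapl1 above 0.249, the highest CTC value, so that by construction no WBC and no CTC holds both. Both were present in all 21 blood and all 7 lung cells from 4.7 to 8.7, and in 2 of 5 blood and 3 of 4 lung cells above 8.7.

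At the line level both signals were present in 7 of 86 blood cells (8.14%, exact interval 3.34% to 16.1%) and 10 of 31 lung cells (32.3%, 16.7% to 51.4%). All 10 lung cells came from P1, where 10 of 27 lung (37.0%) and 3 of 9 blood cells (33.3%) held both. C2R had 0 of 30 blood and 0 of 4 lung cells. The line-level cells of P1 as a whole stood close to the Il1rapl1 limit of 0.249, with medians of 0.242 in blood and 0.236 in lung. In C2R these medians were 0.111 and 0.105. The limit was set on CTC, and P1 holds none. Of the control sets, 0 of 22 culture cells, 8 of 24 PltLike cells, 16 of 24 Duplike cells and 18 of 18 CDP cells held both.

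At the host level Tcra signal was present in 11 of 51 blood and 6 of 85 lung cells. In P1 these were 10 of 35 blood (28.6%) and 6 of 13 lung cells (46.2%), and the remaining blood cell was the C1L cell at 2.44. No other host-level DP cell of C1L, C1N, C1R or C2R reached the limit. The host-level values of P1 stayed near the limit of 0.0238 times the autosomal median. Their highest was 0.0365 in blood and 0.0326 in lung, against a lowest of 0.224 over all line-level DP cells. P1 also had the noisiest host-level cells, at a mean of 0.189 in blood and 0.204 in lung against 0.146 to 0.182 in the other samples, and holds no WBC or CTC of its own. The part of this noise in its Tcra and Il1rapl1 values was not tested.

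**Figure D5:**
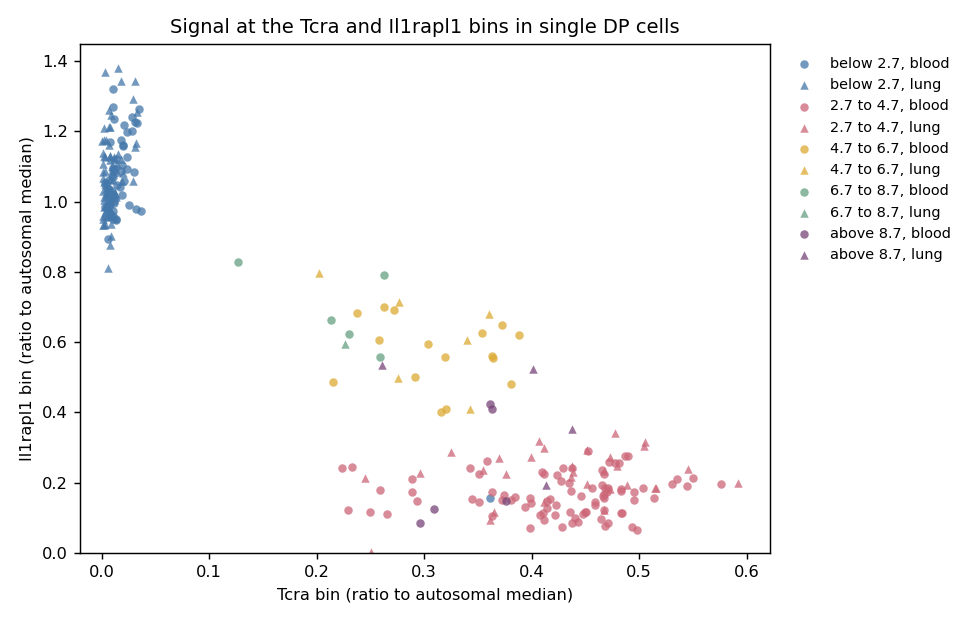
Signal at the Il1rapl1 bin (vertical axis) against the Tcra bin (horizontal axis), both as ratios to the cell's autosomal median, for the 290 DP cells by class (colour) and tissue (marker). Host-level cells stand at the left, line-level cells at the lower right and the cells from 4.7 to 8.7 between them, with lung and blood cells overlapping.

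Single cells could depart from their class on whole chromosomes, and this was counted as a difference of more than 0.3 (log2) from naive WBC at the host level and from the CTC mean at the line level. At the host level 5 of 51 blood cells (9.80%, exact interval 3.26% to 21.4%) and 4 of 85 lung cells (4.71%, 1.30% to 11.6%) departed, against 3 of 46 WBC of tumor-injected samples and 0 of 21 naive WBC, which allows up to 14.3%. The C1L cell at 2.44 was 1 of the 5, departing on chromosomes 3, 6, 7, 14 and X. A lung cell of C1R stood at -0.89 on chromosome 13 and another at 0.51 on chromosome 3. A lung cell of C1N stood at -0.42 on chromosome 1 and -0.59 on chromosome 6, with the lowest score of the 290 cells, -0.436. Chromosome 6 is gained in the line, so this cell departed away from it.

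At the line level 29 of 86 blood cells (33.7%, 23.9% to 44.7%) and 9 of 31 lung cells (29.0%, 14.2% to 48.0%) departed, beside 10 of 43 CTC (23.3%) and 9 of 22 culture cells (40.9%). Chromosome 12 departed in 9 blood cells and 1 lung cell, chromosome 19 in 6 and 2, and chromosome 3 in 1 and 3. Of the lung cells 7 came from P1 and 2 from C2R. The latter included the cell with the near absence of signal over the 12 X bins past limma. It also stood 0.40 lower on chromosome 18 and 0.39 higher on chromosome 16. Over all X bins from 109216701 on, its median log2 level relative to naive WBC was -1.87. The other line-level lung cells of C2R stood at -1.83, -1.78 and -1.76 there.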

How the data were processed

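The authors deposited 1 table of normalised coverage signal, with 648 cells over 4880 bins of variable width, and 1 table of cells with tissue, class and batch. The submitters' processing notes name BWA, SAMtools, Picard and Trim Galore among the tools, and mm10 as the genome build. Settings are not given in the sources used here. The deposited signal stops at 10 in most cells, and read depth per cell is unknown, so bin-to-bin noise (0.136 to 0.247 in the cells compared) stands in for precision.

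Bins standing at 10 in 1% of cells or more were dropped (304 autosomal, 34 X), leaving 4120 autosomal and 256 X bins. Y bins (166) were not used. Values were taken as log2(signal + 0.1) minus the autosomal median of the cell. Cells were averaged per sample, tissue and class, and samples with at least 3 cells in both tissues were paired. The pairing comes from the batch label, which names the sample that both tissues share. Tests were exact two-sided sign-flip permutation tests and limma 3.58.1 in R 4.3.3 (lmFit, eBayes, sample as a block, Benjamini-Hochberg over 4376 bins). Both were run on simulated data. For limma these data had the same spread in every bin, so they could not show errors from bins of unequal spread. Python 3.11.15, pandas 2.3.3 and scipy 1.17.1 were used for the rest. Beside a count of 0, the share made by 3 cells is printed as its upper limit.

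Genes were those of 3 lists (36 genes), and those named with values were the 5 most gained and the 5 most lost in culture relative to naive WBC, plus up to 10 past limma, of which there were none; 1 gene that the rule names is not reported here. Chromosomes were named by the 3 largest differences per class and by the culture. The members, classes, lists and both loci were chosen with earlier results of these data known. Alternatives were another class bound, pseudocount, cell minimum, noise limit, bins at the ceiling, the block, and each sample left out.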

Additional observations from a re-analysis of the deposited data

Results flagged for a closer look

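Of 34 groups of sample values screened for a sample far from the others, 6 had one. The groups overlap and include the class shares, so the flags are a description and their number cannot be set against chance. P1 stood apart in the lung minus blood share of host-level cells, at -48.4 percentage points against 54.5 to 88.4 in the other samples. Its lung share at the line level was 57.4%, against 0% to 16%. In the class from 6.7 to 8.7, blood of C1N held 18.2% of its cells, against 0% to 2.56%, and lung of C1L held 14.3%, which is 1 of 7 cells, against 0%. With every other lung share at 0%, any 1 lung cell in this class would have been flagged. At the host level, the lung X level of C1L was -0.0661, against 0.00752 to 0.0331. The lung signal at the Il1rapl1 bin of P1 was 1.21 times the autosomal median, against 1.02 to 1.06.

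P1 also moved opposite to every C sample in 3 lung minus blood values, a difference that was not tested since P1 was the only P sample with both tissues. The copy-number score differed by 0.417 in P1 and by -0.782 to -0.402 in the C samples. The share of host-level cells differed by -48.4 points, against 54.5 to 88.4. The share of line-level cells differed by 37.9 points, against -78.8 to -27.3.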

How the results depend on the processing

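Of 115 values under alternatives, 6 lung minus blood scores or X levels changed direction, 4 counts of bins moved past the threshold and 4 fell to 0. At the host level, the X difference of 0.0432 turned to -0.0107 with at least 5 cells per tissue and to -0.0469 without the cell at 2.44, and ran from -0.0107 to 0.0728 with 1 sample left out (-0.0107 without C1L). The bins past limma numbered 5 with at least 5 cells, and from 1 to 5 with 1 sample left out (5 without C1L, 1 each without C1N and P1). At the line level, the score difference was -0.00368 with at least 5 cells and -0.00368 to 0.0688 with 1 sample left out, and the X difference ran from -0.00624 to 0.0231. The 14 bins fell to 0 with no replicate block, with a pseudocount of 0.5, with the bins at the ceiling kept, and without the C2R lung cell of highest score. The cause was not tested, except that this cell holds the low X values. The line-level bins could not be fitted with 1 sample left out, with at least 5 cells or with noisy cells removed, since 1 pair or fewer remained. The share difference from 6.7 to 8.7 was 2.93 points without C1N, and that above 8.7 was 0.0608 without C1R, both opposite in sign to the mean. Of 170 values for the 10 genes that the rule names, 160 moved by less than the spread between samples. With 2 or 3 pairs, no exact test here could reach 5%. Read counts are unknown, so no limit from depth was computed.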

Other observations

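The control sets give a further background for the makeup. All 24 PltLike cells lay at the line level and scored 0.911 on average. Duplike cells were spread over 3 classes, with 9 of 24 at the line level, 14 from 4.7 to 6.7 and 1 from 6.7 to 8.7, and scored 0.754 on average. None of the 24 Duplike, 24 PltLike or 18 CDP cells lay at the host level or above 8.7, where the DP cells of lung and blood held 136 and 9 of 290 cells. A count of 0 of 24 allows a share of up to 12.5%, and 0 of 18 up to 16.7%.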
